A study of Bos taurus with 17 samples.

Results

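The Kruppel-like factors (KLF) measured here were KLF2, KLF3, KLF4, KLF5, KLF6, KLF9, KLF10, KLF11, KLF13 and KLF15, in bovine cumulus cells at 3 stages. Probes were taken when the array's annotation gave the gene's symbol as the name or described the transcript as that numbered Kruppel-like factor, which found 10 genes and 11 probes among 21475 probes and 19813 gene names. KLF13 had 2 probes, A_73_106439 and A_73_115556, and each of the other genes had 1. All 11 probes passed the filter on dim signals, which kept the 13865 probes present on 80% or more of the arrays in every stage.

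Cumulus cells are the somatic cells that enclose the oocyte, and the study asked which of their transcripts change as the oocyte acquires developmental competence. NC1 cells (n = 6) surrounded immature oocytes of prepubertal calves, 3 to 6 months old, whose follicles measured 3 to 6 mm. C1 cells (n = 6) enclosed oocytes of adult cows that were likewise immature, and both of these stages came from compact cumulus aspirated after slaughter. C2 cells, from an expanded cumulus, surrounded mature oocytes from follicles above 8 mm of non-lactating Holstein cows aged 3 to 5 years (n = 5), which received a progestagen implant and an FSH/LH superovulation treatment and were sampled by ovum pick up 60 h after prostaglandin. Between NC1 and C1 the age of the animals cannot be told apart from the stage, and between C1 and C2 follicle size, hormone treatment and collection cannot be told apart from it. The labels give the tissue as ovarian follicles, whereas by the study's methods the RNA came from cumulus cells alone.

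Kruppel-like factors are transcription factors that bind GC-rich and CACCC-box DNA through zinc fingers at the C-terminal end. The other end of the protein differs between members and decides whether they recruit coactivators or corepressors: KLF2, KLF4, KLF5 and KLF6 are mostly described as activators, KLF3 binds the corepressor CTBP, and KLF9, KLF10, KLF11 and KLF13 bind the corepressor SIN3A. Several are rapid responders to hormones and growth factors. KLF9 and KLF15 are induced by glucocorticoids, KLF9 works with the progesterone receptor in the uterus, KLF10 and KLF11 were named as early genes induced by TGF-beta, and KLF2 and KLF4 are known for quiescence in endothelial and immune cells.

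The probes that carry the results below are identified by a stretch of 30 of their 60 bases, given 5′ to 3′ as the deposited table lists them. The KLF9 and KLF2 probes are shown because they separated NC1 from C1, the KLF13 probes because they differed from each other, and the KLF15 probe because it holds the polyadenylation signal AATAAA, marked by capitals.
KLF9: aggtagatttagcacagtactcatcactct
KLF2: gtaaatgagacaagtgggcattttgactac
KLF13 A_73_106439: acgccctgaggccccgcctccttaccacag
KLF13 A_73_115556: cagttgtacagttcccaatctggccttggc
KLF15: aatatatttgccAATAAAaagaagaaagaa
No pair among the 11 probes shared a run longer than 9 bases on either strand. The GC content of the whole KLF13 probe A_73_106439 was 60%, and that of the other KLF13 probe was 41.7%, with a median of 43.3% over the 13865 probes. AATAAA was found on either strand in 3 of the 11 probes and in 18.9% of all probes.

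Each sample was hybridised to 1 one-colour array, and levels are given as log2 scaled signal, on which 0 is the array's median probe. The number of arrays limits the precision, and p-values set a difference between stages against the spread between these samples. Median array signals ran from 64.3 to 208.7 intensity units over a median background of 20 to 24, and 66.2% to 82.8% of the probes were well above background. The 17 arrays lay on 6 slides scanned on 2 days, with 1 NC1 and 1 C1 array on each slide and 1 C2 array on 5 of them. Expansion markers rose at C2 in comparison to C1 for 4 of 4 measured genes (HAS2, PTGS2, PTX3 and TNFAIP6), where 15.2% of all probes rose. Of 8 measured cumulus and granulosa genes none was called between C1 and NC1. At C2 over C1, 5 of them fell (AMH, CYP19A1, FOXL2, FSHR and HSD17B1), where 12.9% of all probes fell. Most pairs of C2 arrays were more unlike each other than pairs of the other stages. The SD of the log2 difference between a pair of arrays was 0.430 to 0.694 within NC1 and 0.453 to 0.756 within C1. Within C2 it was 1.05 to 1.27, apart from replicates 1 and 5 (0.440) and replicates 3 and 4 (0.516), which lay as close to each other as arrays of the other stages. The study's methods give 5 cows for C2, but the labels do not tie arrays to cows. If arrays of a pair shared a source, n at C2 would be below 5 and its p-values too small. With each pair averaged, 8 members stayed called against C1 and 6 of 7 against NC1. Replicates 3 and 4 were also the C2 arrays scanned on day 2, so day and array pair cannot be told apart within C2.

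**Figure D1:**
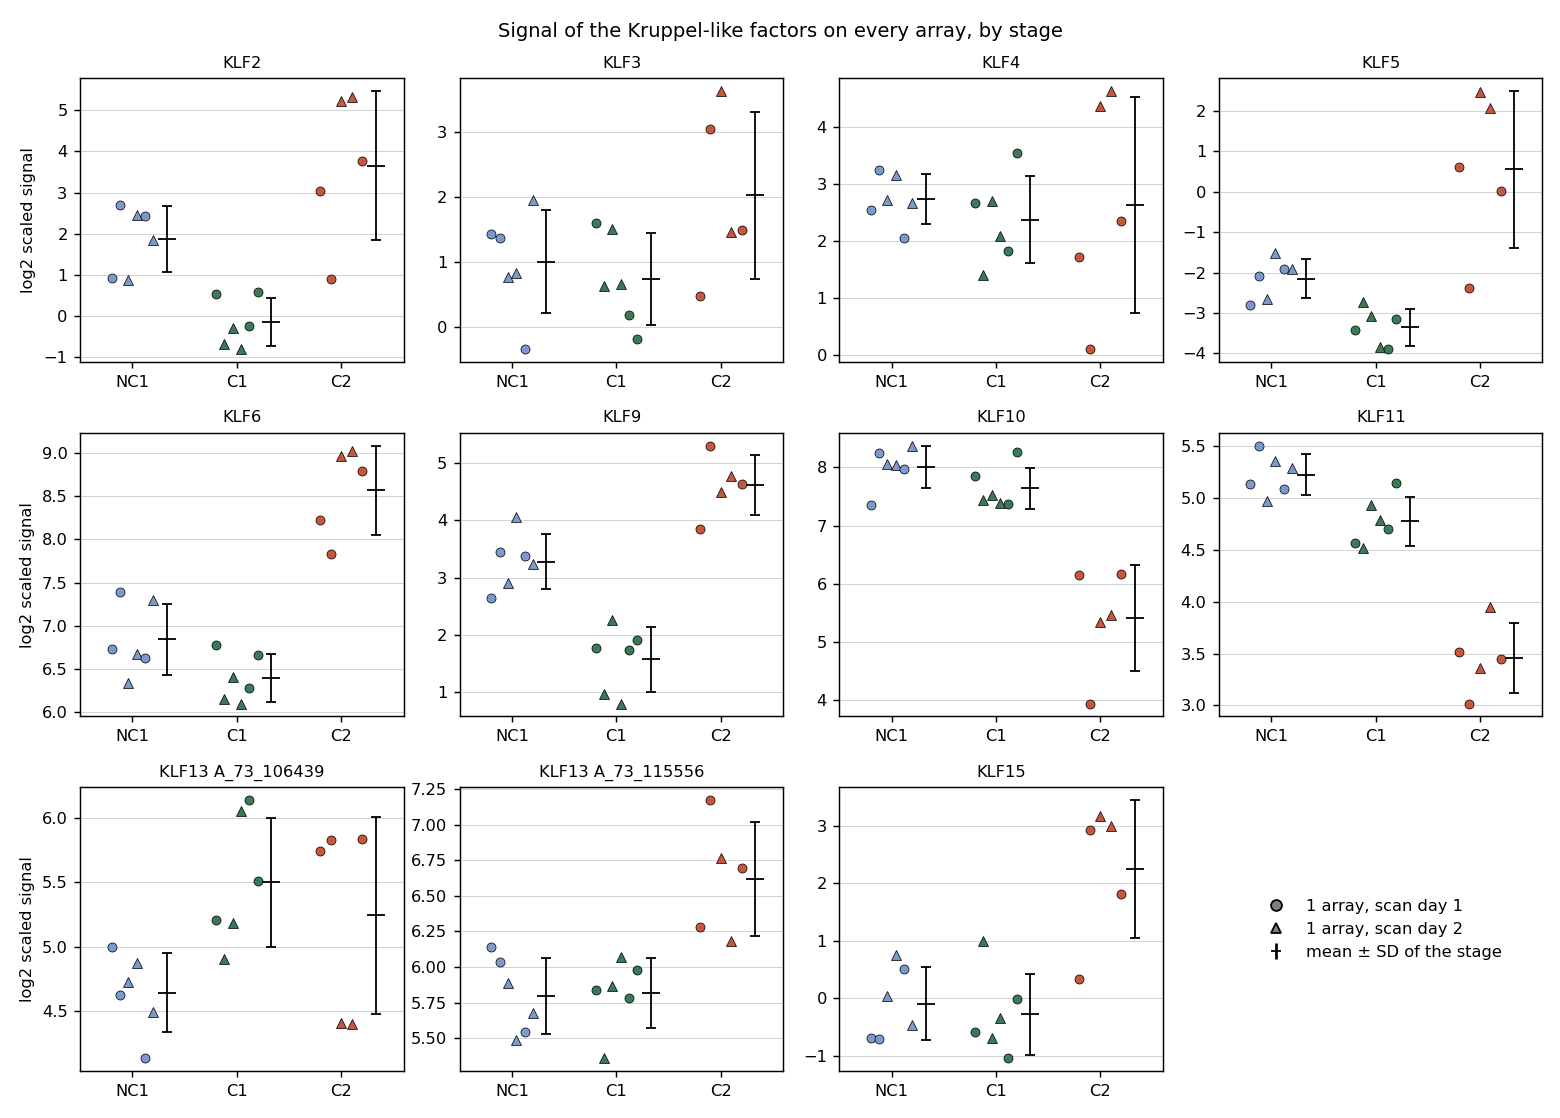
Log2 scaled signal (y axis, 0 is the array's median probe) of the 11 probes by stage, with 1 point per array, circles for scan day 1, triangles for scan day 2 and bars for the mean ± SD. KLF9 and KLF2 show no overlap between NC1 and C1, KLF6 is higher and KLF10 and KLF11 are lower at C2 than on any array of the other stages, and the C2 arrays of KLF2, KLF4 and KLF5 spread over more than 4 log2 units.

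The first comparison set cumulus cells of adult cows (C1) against those of calves (NC1), both around immature oocytes. KLF9 had the smallest p of the members. Its signal lay between 2.65 and 4.06 on the NC1 arrays, with a median of 3.31, and between 0.81 and 2.26 on the C1 arrays, with a median of 1.76. Each C1 array was thus below each NC1 array. The difference was -1.70 ± 0.29 (log2, SE), 3.26-fold lower at C1, and was the 12th smallest p of 13865 probes. The adjusted p of limma was 0.015, which missed the threshold of 0.01, and the exact permutation test gave p = 0.00216, the smallest it can give for 6 arrays against 6. KLF9 was lower on the C1 array than on the NC1 array of the same slide on 6 of 6 slides, by 0.74 to 2.27 on the log2 scale. The difference was -1.35 ± 0.37 among the scan day 1 arrays (adjusted p = 0.69) and -2.06 ± 0.38 among those of day 2 (adjusted p = 0.019). The call turned with the setting: the adjusted p was 0.0086 without C2 replicate 1, 0.0081 without C2 replicate 2 and 0.00095 with array weights.

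KLF2, a factor of quiescent endothelial and T cells, also separated the immature stages. Its NC1 signal ranged from 0.88 to 2.70 with a median of 2.13, and its C1 signal from -0.81 to 0.57 with a median of -0.26. The ranges did not overlap, and the C1 array was lower on 6 of 6 slides, by 0.34 to 2.93. The difference was -2.02 ± 0.59 (log2, SE), with an adjusted p of 0.17 in limma and an exact permutation p of 0.00216. The spread of KLF2 between arrays was large at every stage (SD 0.804 at NC1, 0.586 at C1 and 1.81 at C2). The fit takes 1 spread per probe over the 3 stages, so the C2 arrays enter the SE of this difference. Without C2 replicate 2 that SE was 0.42, with an adjusted p of 0.033 in limma. The difference was -1.72 on scan day 1 alone (adjusted p = 0.9999) and -2.32 on day 2 alone (adjusted p = 0.0062), and with array weights the adjusted p was 0.0035.

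No member passed the threshold between C1 and NC1 in limma or in the methods' one-factor test without moderation, where 0.0649% of all probes passed in limma. An unadjusted limma p under 0.05 was found for KLF2, KLF9 and KLF11 among the 10 genes, and for 1370 of 13865 probes. KLF13 was counted there by its brighter probe. Its other probe, A_73_106439, had an unadjusted limma p of 0.0093 and was higher at C1. KLF9 and KLF2 were the members without overlap, both lower at C1, where 1.19% of all probes were lower without overlap. By the brighter probe of KLF13, the C1 mean was below the NC1 mean for 9 of 10 genes, against 42.5% of all probes. The median difference of the 10 genes was -0.41 (log2), beside 0.05 over all probes. KLF2, KLF3, KLF5, KLF6, KLF9, KLF10, KLF11 and KLF15 kept the lower mean at C1 in each alternative run, while KLF4 and KLF13 changed sign in some.

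Among the others, KLF5, an activator of proliferation genes, was dim in compact cumulus. Its signal ranged from -2.80 to -1.52 (median -1.9999) at NC1 and from -3.90 to -2.73 (median -3.29) at C1, with 1 of 6 C1 arrays not well above background. The ranges just overlapped, and the difference of -1.20 ± 0.57 gave an adjusted p of 0.51 and an exact permutation p of 0.0043. The SD of KLF5 was 0.49 at NC1, 0.46 at C1 and 1.93 at C2, and the C2 arrays enter this SE. Without C2 replicate 2 the SE was 0.37, with an adjusted p of 0.15 in limma. KLF11, a TGF-beta-inducible repressor, lay between 4.97 and 5.51 (median 5.22) at NC1 and between 4.52 and 5.15 (median 4.74) at C1, a difference of -0.45 ± 0.17 with an adjusted p of 0.34. KLF6, KLF10, KLF3, KLF4 and KLF15 differed by -0.45 ± 0.23, -0.37 ± 0.31, -0.27 ± 0.49, -0.36 ± 0.59 and -0.19 ± 0.45, all within ranges that overlapped.

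The KLF13 probes gave different answers for the same contrast. A_73_106439 ranged from 4.14 to 5.00 (median 4.68) at NC1 and from 4.90 to 6.14 (median 5.36) at C1, higher at C1 on 6 of 6 slides, with a difference of 0.86 ± 0.29, an adjusted p of 0.27 and an exact permutation p of 0.0043. A_73_115556, the brighter probe, ranged from 5.49 to 6.14 (median 5.78) at NC1 and from 5.36 to 6.07 (median 5.85) at C1, with a difference of 0.02 ± 0.19 and a 95% interval of -0.38 to 0.42.

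**Figure D2:**
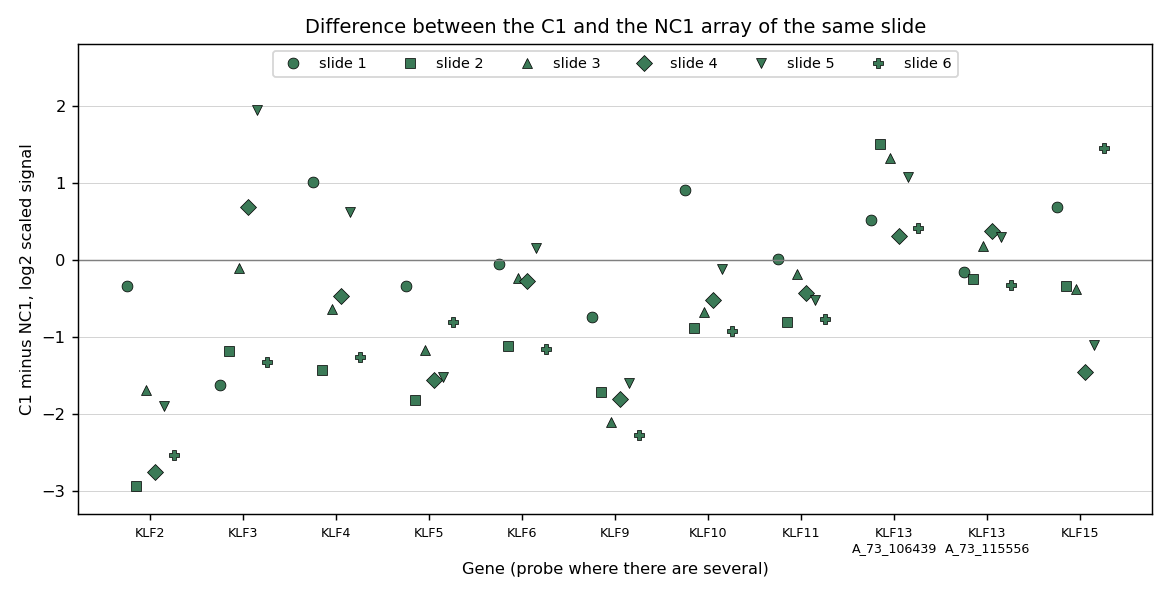
Difference between the C1 and the NC1 array of the same slide (y axis, log2 scaled signal) for each probe (x axis), with 1 symbol per slide. KLF2, KLF5 and KLF9 lie below 0 on 6 of 6 slides and KLF13 A_73_106439 above 0 on 6 of 6, while the other probes have slides on both sides.

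The second comparison set the expanded cumulus (C2) against the compact cumulus of adult cows (C1), and the third set it against that of calves (NC1); the comparisons share the C2 arrays. In comparison to C1, KLF2, KLF5, KLF6, KLF9, KLF13 and KLF15 were over-expressed at the C2 stage, 6 of 10 genes where 15.2% of all probes rose, and KLF10 and KLF11 fell, 2 of 10 where 12.9% of all probes fell. The median difference over the 10 genes was 1.73 (log2), beside 0.02 over all probes. Arrays of the stages did not overlap for 5 risen genes (10.7% of all probes) and 2 fallen genes (11.0%). In comparison to NC1, KLF5, KLF6, KLF9, KLF13 and KLF15 rose (5 of 10, with 15.5% of all probes) and KLF10 and KLF11 fell (2 of 10, with 12.6%), with a median difference of 1.18 over the 10 genes and 0.11 over all probes. No overlap with NC1 was seen for KLF6 and KLF13 among the risen (10.6% of all probes) and for KLF10 and KLF11 among the fallen (10.3%). Over the 3 stages together the moderated F called 8 of 10 genes, where 28.7% of all probes were called, and KLF3 and KLF4 were those not called. In bulk samples fewer cells of a type and less RNA per cell cannot be told apart. Among all probes, 2155 rose and 1746 fell between NC1 and C2, and with normexp background correction 2471 rose and 1196 fell. The balance turned with 75th percentile scaling, where 2079 rose and 2493 fell, and with quantile normalization, where 2154 rose and 2452 fell. Against C1, 2112 rose and 1783 fell, and the balance turned likewise, to 2112 and 2512 with 75th percentile scaling and to 2211 and 2460 with quantile normalization.

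**Figure D3:**
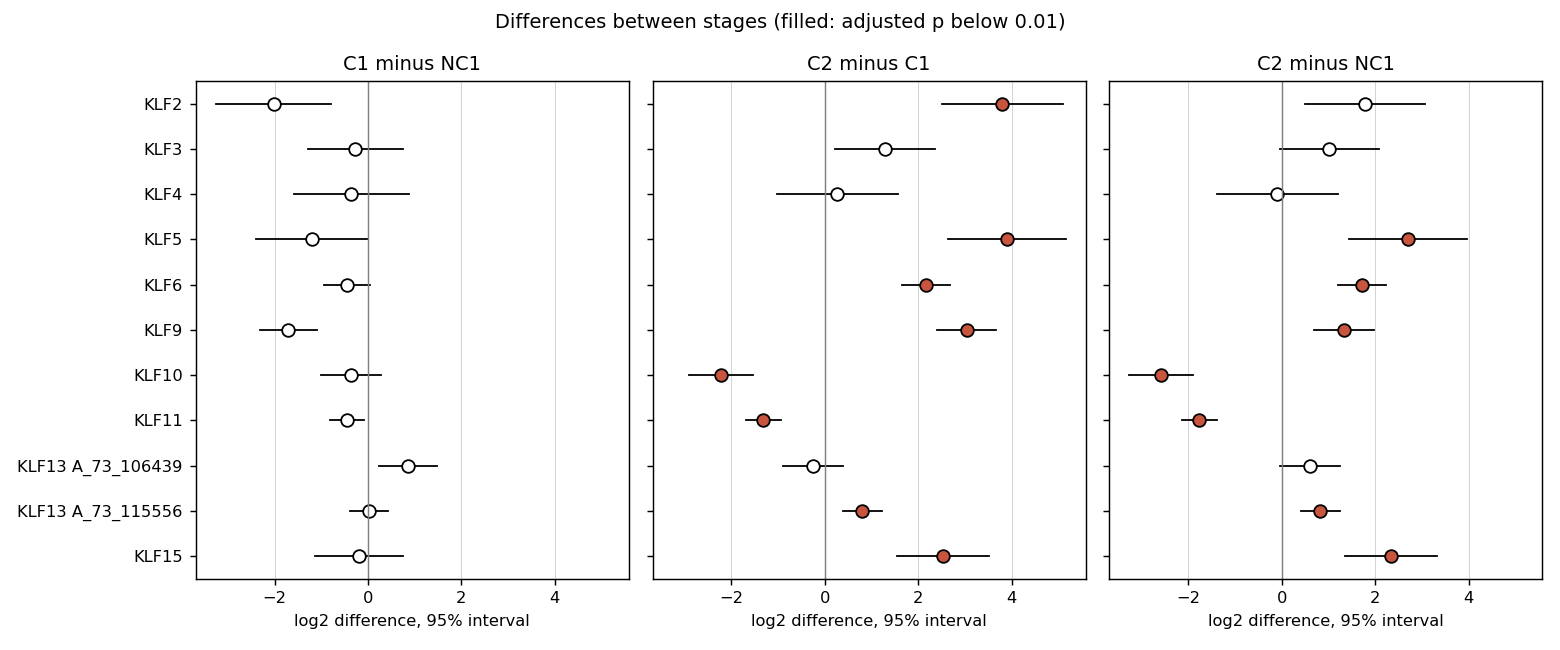
Log2 difference (x axis) of each probe in the 3 contrasts, with the 95% interval as a line and a filled point where the adjusted p was below 0.01. No point is filled for C1 minus NC1, and KLF10 and KLF11 are the probes filled on the negative side of both contrasts with C2.

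The activators KLF6, KLF5 and KLF2 rose in different ways. KLF6, an immediate responder in growth and injury, stood at 8.23, 7.83, 8.96, 9.02 and 8.79 on C2 replicates 1 to 5. Its C1 range was 6.10 to 6.78 (median 6.34) and its NC1 range 6.34 to 7.39 (median 6.70), so that each C2 array was above each array of both other stages. The rise was 2.17 ± 0.24 over C1 (4.50-fold, adjusted p = 1.5e-06) and 1.72 ± 0.24 over NC1 (3.30-fold, adjusted p = 2.0e-05). Within scan days it was 1.71 and 2.77 over C1, and over NC1 the call was lost on day 1 alone (adjusted p = 0.014).

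KLF5 stood at 0.61, -2.39, 2.46, 2.08 and 0.01 on the C2 arrays. Replicate 2 lay within the NC1 range, and the other replicates were above every array of compact cumulus. The fitted rise over C1 was 3.90 ± 0.60 (adjusted p = 4.6e-05), with 2.90 on scan day 1 (adjusted p = 0.011) and 5.48 on day 2. Against NC1 it was 2.70 ± 0.60 (adjusted p = 0.0015). The latter was not called with replicates 1 and 5, and 3 and 4, averaged (adjusted p = 0.014) nor on scan day 1 alone (adjusted p = 0.095).

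KLF2 stood at 3.05, 0.90, 5.22, 5.31 and 3.76 at C2, above each C1 array, with replicate 2 inside the NC1 range. It rose by 3.80 ± 0.61 over C1 (adjusted p = 7.7e-05). Over NC1 the difference was 1.78 ± 0.61 with an adjusted p of 0.028. Without C2 replicate 2 it was 2.46 (adjusted p = 0.00046), and without replicates 3 or 4 it was 1.38 and 1.36 (adjusted p = 0.084 and 0.087). By scan day it was 0.56 on day 1 (adjusted p = 0.60) and 3.53 on day 2 (adjusted p = 7.8e-06). On scan day 1 alone the difference from C1 was 2.28 (adjusted p = 0.043), and on day 2 alone it was 5.86.

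KLF4, the close relative of KLF2, had no common direction. The C2 arrays stood at 1.71, 0.10, 4.36, 4.62 and 2.35, with replicates 3 and 4 above every array of compact cumulus and replicate 2 below. NC1 ranged from 2.04 to 3.24 (median 2.69) and C1 from 1.40 to 3.55 (median 2.37). The difference from C1 was 0.26 ± 0.62, with a 95% interval of -1.03 to 1.56 and an adjusted p of 0.76. It was -1.29 on scan day 1 (adjusted p = 0.17) and 2.44 on day 2 (adjusted p = 8.8e-05).

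KLF9, a partner of the progesterone receptor and a repressor through SIN3A, stood at 3.85, 5.30, 4.50, 4.78 and 4.64 at C2. These values were above each C1 array, and replicate 1 alone fell inside the NC1 range. The rise over C1 was 3.04 ± 0.30 (8.21-fold, adjusted p = 3.4e-07), with 2.79 on scan day 1 and 3.29 on day 2. Over NC1 it was 1.33 ± 0.30 (2.52-fold, adjusted p = 0.0018), and KLF9 was higher on the C2 array on 5 of 5 slides in both contrasts. The call against NC1 was lost under 75th percentile scaling (adjusted p = 0.010021), quantile normalization (0.010035) and array weights (0.031), and on each scan day alone. The order of the KLF9 means was C1 (1.58 ± 0.56, SD, n = 6), NC1 (3.28 ± 0.49, n = 6) and C2 (4.61 ± 0.52, n = 5).

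KLF13, which belongs with KLF9 to the group that binds SIN3A, rose by its brighter probe only. A_73_115556 stood at 6.28, 7.17, 6.77, 6.18 and 6.70 at C2, above each array of C1 and NC1 by at least 0.12 and 0.05 (log2). The rise was 0.80 ± 0.20 over C1 (1.75-fold, with an adjusted p of 0.0034) and 0.83 ± 0.20 over NC1 (adjusted p of 0.0029), and over C1 it was 0.85 on scan day 1 and 0.71 on day 2. Both calls were lost under 75th percentile scaling, quantile normalization, the replicate block (adjusted p = 0.016 and 0.014), the mean of the KLF13 probes and within each scan day, and the call against C1 was also lost with normexp background correction (adjusted p = 0.0496). A_73_106439 stood at 5.74, 5.83, 4.41, 4.40 and 5.83, with replicates 3 and 4 more than 1 log2 unit below the others. Its difference from C1 was -0.26 ± 0.31 (95% interval -0.91 to 0.39).

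The difference between the KLF13 probes within an array was 1.15 ± 0.29 at NC1, 0.31 ± 0.40 at C1 and 1.38 ± 0.72 at C2 (log2, brighter minus dimmer, SD). Across the 17 arrays the Pearson correlation of the probes was 0.325. The array describes both as KLF13, one from a predicted transcript and one from an expressed sequence tag, and which transcript each detects was not tested.

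**Figure D4:**
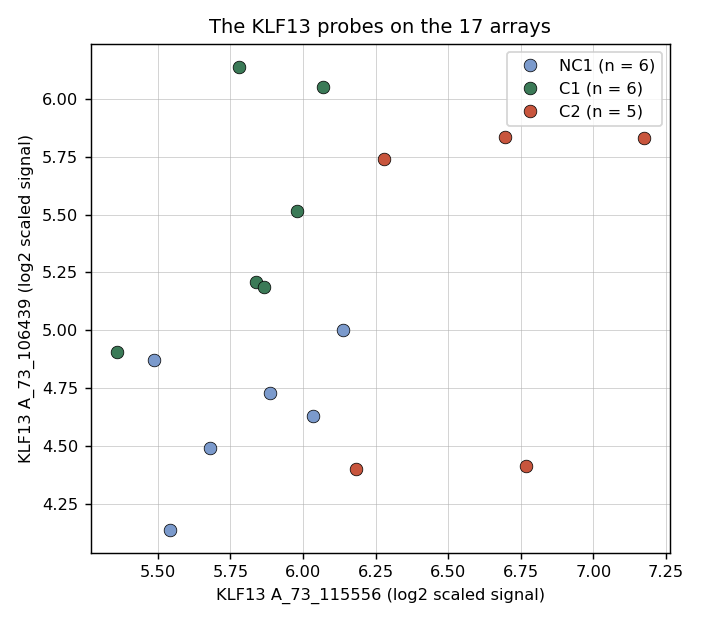
Log2 scaled signal of KLF13 probe A_73_106439 (y axis) against A_73_115556 (x axis) on the 17 arrays, coloured by stage. C1 arrays lie above NC1 arrays at similar x values, C2 arrays lie furthest to the right, and the lowest pair of C2 points is replicates 3 and 4.

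The TGF-beta-inducible members fell. KLF10 stood at 6.16, 3.95, 5.35, 5.47 and 6.16 at C2, below the C1 range of 7.36 to 8.26 (median 7.48) and the NC1 range of 7.35 to 8.37 (median 8.05). It decreased by 2.22 ± 0.32 in comparison to C1 (4.67-fold, with an adjusted p of 2.6e-05), and it decreased by 2.59 ± 0.32 in comparison to NC1 (6.02-fold, with an adjusted p of 5.0e-06). KLF11 stood at 3.52, 3.02, 3.36, 3.95 and 3.45, again below every array of compact cumulus. It decreased by 1.32 ± 0.18 against C1 (2.49-fold, adjusted p = 1.2e-05), and it decreased by 1.77 ± 0.18 against NC1 (3.40-fold, adjusted p = 4.4e-07). KLF11 passed the threshold in both contrasts in each alternative run, scan days alone included (-1.48 and -1.09 against C1), and KLF10 in each except scan day 1 alone (adjusted p = 0.013 and 0.012).

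KLF15, a regulator of amino acid and glucose metabolism, stood at 0.33, 2.93, 3.17, 3.00 and 1.82 at C2. The C1 range was -1.04 to 0.99 (median -0.46) and the NC1 range -0.70 to 0.75 (median -0.21), and C2 replicate 1 lay inside both. The rise was 2.53 ± 0.47 over C1 (5.79-fold, adjusted p = 0.00030) and 2.34 ± 0.47 over NC1 (adjusted p = 0.00062), and was not called on scan day 1 alone (adjusted p = 0.026 and 0.042). KLF3, the CTBP-binding repressor, stood at 0.48, 3.05, 3.63, 1.47 and 1.499, with C1 between -0.19 and 1.60 (median 0.65) and NC1 between -0.34 and 1.96 (median 1.096). Replicates 2 and 3 were above every array of the compact stages, and the difference from C1 was 1.29 ± 0.51 with an adjusted p of 0.050.

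Within C2 the median SD of the 10 genes was 1.05 (log2), with 0.334 for KLF11 and 1.93 for KLF5 at the ends, beside 0.497 over all probes. At NC1 and C1 the medians were 0.462 and 0.511, beside 0.335 and 0.329 over all probes. C2 replicate 2 was lowest of the C2 arrays for KLF2, KLF4, KLF5, KLF6, KLF10 and KLF11 and highest for KLF9 and KLF13 A_73_115556. Replicates 3 and 4 were the highest C2 arrays for KLF2, KLF4, KLF5, KLF6 and KLF15.

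**Figure D5:**
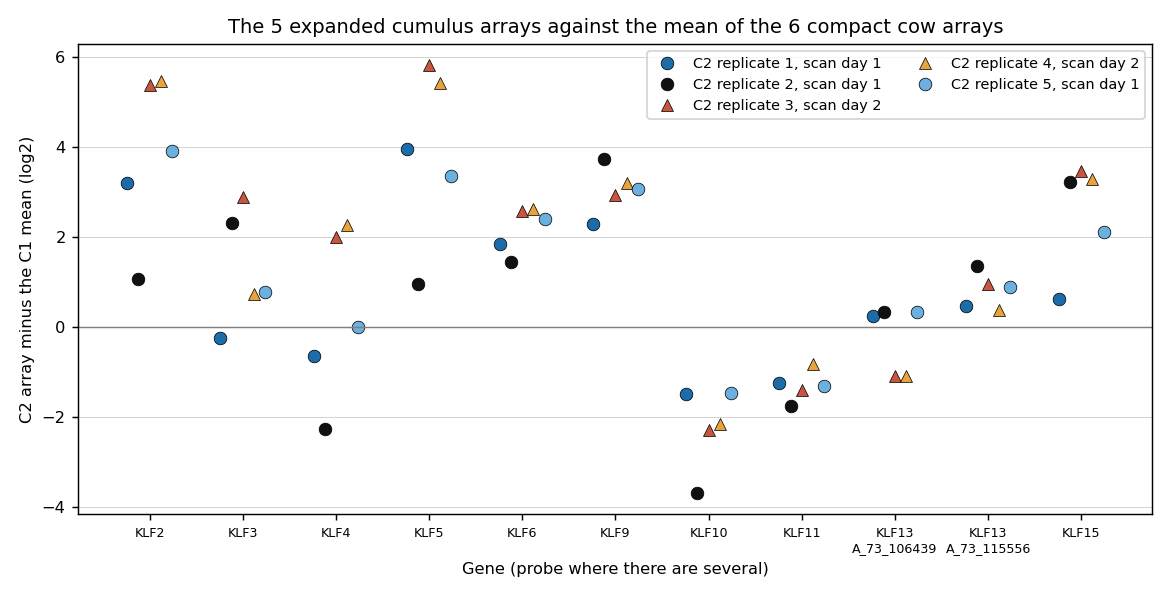
Difference of each C2 array from the C1 mean (y axis, log2) for each probe (x axis), coloured by replicate, with circles for scan day 1 and triangles for scan day 2. Replicates 3 and 4 lie close together and above the day 1 arrays for KLF2, KLF4 and KLF5. The 5 arrays lie on 1 side of the C1 mean for KLF2, KLF5, KLF6, KLF9, KLF10, KLF11, KLF13 A_73_115556 and KLF15.

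The genes whose signal followed KLF9 most closely across the 17 arrays, among 10533 named genes, were TRIB3 (Pearson r = 0.911), SYNM (0.901) and PPM2C (0.901). For KLF13 A_73_115556 they were MLX (0.931), OCRL (0.898) and RESP18 (0.876), and for A_73_106439 FLJ12529 (0.934), PPP4C (0.927) and BABAM1 (0.925). The arrays span the 3 stages, so that differences between stages enter these correlations.

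Of the 7 other KLF genes looked for, 4 had probes and 3 passed the filter, and none was called between C1 and NC1. At C2, KLF7 was higher than at C1 by 1.24 ± 0.29 (adjusted p of 0.0021) and higher than at NC1 by 1.49 ± 0.29. KLF12 rose by 0.78 ± 0.22 over C1 by its brighter probe (adjusted p = 0.0098), while its other valid probe differed by 0.01 ± 0.18. Of the related SP factors, 5 of 7 genes with probes were measured, none was called against C1, and SP2 was higher at C2 than at NC1 by 0.78 ± 0.21 (adjusted p = 0.0072).

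Of 11 measured corepressors and coactivators, 2 rose at C2 over C1, where 15.2% of all probes rose. The other 9 were not called, and the median difference of the 11 was 0.20 (log2). The histone deacetylases HDAC1 and HDAC3 rose by 1.07 ± 0.30 (adjusted p = 0.0084) and 1.04 ± 0.27 (adjusted p = 0.0044). The SIN3 and CTBP genes were among those not called in any of the contrasts. Of 7 measured genes of the MAPK7 and MEF2 route and of ubiquitin ligases that act on KLF proteins, none was called in the 3 contrasts.

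The hormone inputs were read from their receptors and induced genes. Of 5 measured genes of glucocorticoid and progesterone signalling, 3 rose at C2 over C1 (15.2% of all probes), with a median of 2.02 over the 5. FKBP5, a chaperone induced by both hormones, rose by 3.12 ± 0.23 (adjusted p = 1.2e-08). ZBTB16, another hormone-induced repressor, rose by 4.51 ± 0.42 (adjusted p = 1.3e-07), and the progesterone receptor PGR by 2.02 ± 0.53 (adjusted p = 0.0055). The SD within C2 was 0.24 for FKBP5, 0.56 for ZBTB16 and 1.79 for PGR. NR3C1, the glucocorticoid receptor, was not called. PER1, a clock gene listed here as glucocorticoid-induced like FKBP5 and ZBTB16, differed at C2 from C1 by -0.09 ± 0.23. It was lower at C2 than at NC1 by 1.07 ± 0.23 (adjusted p = 0.0013).

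Of 9 measured genes of TGF-beta signalling, 3 rose and 1 fell at C2 over C1, where 15.2% of all probes rose and 12.9% fell. TGFB2 rose by 3.98 ± 0.65, TGFB3 by 2.04 ± 0.42 and the receptor TGFBR2 by 3.68 ± 0.33 (adjusted p = 8.5e-05, 0.00075 and 9.9e-08), and SMAD2 decreased by 1.67 ± 0.22 (adjusted p = 6.8e-06). The SD within C2 was 2.11 for TGFB2, 1.19 for TGFB3, 0.29 for TGFBR2 and 0.43 for SMAD2. No gene of the list was called between C1 and NC1.

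Of 11 measured genes reported as targets of one or more of the factors, 3 rose, 2 fell and 6 were not called at C2 over C1. Among all probes 15.2% rose and 12.9% fell in this contrast. BCAT2, a branched-chain amino acid enzyme, rose by 1.28 ± 0.33, the endothelial co-receptor ENG by 1.44 ± 0.37 and the cyclin CCND1 by 2.43 ± 0.64. Aromatase CYP19A1 decreased by 3.44 ± 0.94, and PPARG, a lipid-sensing nuclear receptor, decreased by 2.21 ± 0.32. The SD within C2 was 2.97 for CYP19A1, 1.92 for CCND1, 1.19 for ENG, 0.98 for PPARG and 0.89 for BCAT2. In comparison to NC1, SOD2 was among the risen (1.18 ± 0.33, adjusted p = 0.0086) and CCND2 among the fallen (-2.50 ± 0.71, adjusted p = 0.0087). Of the 11, none was called between C1 and NC1.

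Markers of other cells were examined because KLF2 and KLF4 are abundant in endothelial and immune cells. Of 8 measured leukocyte genes, none was called between C1 and NC1, with a median difference of -1.25 (log2). At C2 over C1, 4 of them rose (CD14, CD53, LAPTM5 and TYROBP), where 15.2% of all probes rose. The summed scaled signal of the 10 leukocyte genes on the array was 7.46 to 19.7 at NC1, 5.82 to 9.88 at C1 and 7.00 to 50.6 at C2. CD3E and ITGAM were not well above background on any compact array, but CD3E was on 4 of 5 C2 arrays and ITGAM on 1 of 5. The leukocyte sum at C2 was highest on replicates 5 (50.6) and 1 (36.9), while KLF2 was highest on replicates 3 and 4, where the sum was 19.7 and 21.3. Both were lowest on replicate 2, with a sum of 7.00 and KLF2 at 0.90. The part of leukocytes in the KLF2 difference was not tested.

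For endothelium, 1 of 6 measured genes rose and 1 fell at C2 over C1, where 15.2% of all probes rose and 12.9% fell. The receptor KDR rose by 3.56 ± 0.50, with an SD of 1.61 within C2, and TEK, the angiopoietin receptor, decreased by 0.78 ± 0.23. The summed signal of the 8 genes was 1.84 to 3.41 at NC1, 1.69 to 2.30 at C1 and 3.33 to 11.8 at C2, highest on replicates 3 and 4. On these arrays the sum was mostly KDR, at 3.21 and 3.41 (log2). VWF, named after its values were seen, stood there at -3.13 and -2.94, below its C1 range of -1.86 to -1.02. On replicate 2 it stood at -3.59. On replicates 1 and 5 it stood at 2.45 and 1.93, above every array of compact cumulus. The list had no common order between these pairs of C2 arrays. CLDN5 and TEK were likewise higher on replicates 1 and 5 than on 3 and 4, whereas KDR and PECAM1 were lower. PECAM1 stood at -5.00 and -3.64 on replicates 1 and 5 and at -3.15 and -2.90 on 3 and 4. TIE1 and ESAM did not separate the pairs. CDH5, a defining gene of the endothelium, was not well above background on any of the 17 arrays. Of 3 measured oocyte genes none was called between C1 and NC1, where GDF9, ZP3 and NLRP5 differed by -2.81 ± 0.50, -1.91 ± 0.32 and -2.13 ± 0.64 (adjusted p = 0.018, 0.013 and 0.19). All 3 were lower at C2 than at NC1, where 12.6% of all probes fell. The summed signal of 8 oocyte genes was 54.0 to 128 at NC1, 4.99 to 49.3 at C1 and 3.28 to 7.77 at C2. From NC1 to C1 this sum and KLF9 both fell, each without overlap between arrays. At C2 KLF9 was highest, and the median of the sum was lowest. The part of oocyte RNA in the KLF9 difference between C1 and NC1 was not tested. Of red cell genes 1 was measured and none was called, with a summed signal of 0.510 to 0.792 over the 17 arrays. Theca and stroma genes summed to 175 to 309 at NC1, 201 to 310 at C1 and 319 to 607 at C2. Among 8 measured genes LUM and COL1A1 were called up at C2 over C1, where 15.2% of all probes rose. DCN differed from C1 by -0.07 ± 0.33 by its brighter probe and rose by 4.07 ± 0.55 by its other valid probe (adjusted p = 1.2e-05). The part of theca and stroma in the C2 differences was not tested. Of 14 measured immediate early genes, which respond to stress and growth factors as several KLF genes do, none was called between C1 and NC1. At C2 over C1, 5 of them fell (ATF3, BTG2, MYC, NR4A1 and ZFP36), where 12.9% of all probes fell.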

How the data were processed

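Cumulus cells were measured on 17 one-colour arrays, grouped by the stage in their labels. The authors deposited linear intensity values per spot from Feature Extraction 10.5.1.1, background-subtracted and not scaled between arrays. The authors also deposited a log2 table, which equals the mean of log2 spot signals minus 1 constant per array and was run as an alternative. Per probe, the mean intensity over uniform, non-outlying spots was taken, then log2, and each array's median over non-control probes was subtracted. A probe was present where at least 50% of its spots were well above background, and valid where present on 80% of the arrays of each stage. Stages were compared in 1 fit in limma 3.58.1 (R 4.3.3; lmFit, eBayes), with Benjamini-Hochberg adjustment over 13865 valid probes and a threshold of 0.01. SE is that of the fitted difference and rests on 1 spread per probe shared by the 3 stages. Where the C2 arrays spread more than the others, it tends to be too large for C1 against NC1. For the contrasts with C2 it then tends to be too small. Single probes were also compared between stages by an exact permutation test on the means, 2-sided, with a smallest p of 0.00216 (6 against 6) and 0.00433 (5 against 6). The fit was tested on simulated data. A gene with several valid probes is counted by the brightest. Lists (other KLF and SP genes, partners, inputs, reported targets and cell markers) are described by counts and medians, with values for genes past the threshold; some targets are not reported here. Members and lists were chosen with earlier results of these data known. List genes were named from the array's own names and descriptions and through a RefSeq list by accession or gene ID; the genome build is not given in the sources used here, so no coordinates are printed. Replicate numbers do not pair animals, which differ between stages. Alternatives covered scaling, background, filters, slide, scan day, replicate number, array weights, a fit without moderation and left-out arrays; those of single scan days and of averaged C2 pairs were chosen after the data were seen. Remaining steps used Python 3.11.15, pandas 2.3.3 and scipy 1.17.1.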

Additional observations from a re-analysis of the deposited data

How the results depend on the processing

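Each alternative changed 1 choice. No member was called between C1 and NC1 as reported, 3 were with array weights (KLF2, KLF9 and KLF11) and 1 on scan day 2 alone (KLF2), and 0 to 1 with an array left out (KLF9, without C2 replicate 1 or 2). On scan day 1 alone (9 arrays) 3 members were called at C2 over C1, 1 at C2 over NC1 and 3 among the 3 stages, in place of 8, 7 and 8. Scan day 2 alone (8 arrays) gave 8, 7 and 8, but not the same genes in the contrasts with C2. Against C1, KLF4 was called on day 2 (adjusted p = 8.8e-05) and KLF13 was not (0.081). Against NC1, KLF2 (7.8e-06) and KLF4 (0.0023) were called, and KLF9 (0.034) and KLF13 (0.060) were not. With the replicate number as a block the counts were 0, 7, 6 and 7, KLF13 alone losing its call. Same-numbered arrays of different stages correlated in their deviations by -0.320 to 0.251. Arrays of different stages and different scan days correlated by -0.432 to 0.392, so these values cannot decide whether the numbers pair samples. By the study's methods the animals differed between stages. Exact permutation p was under 0.01 for 17 of 33 probe contrasts, for 14 to 17 under other scalings and the deposited table, and for 15 to 18 with an array left out.

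Of 1086 values of single members under 33 settings, 1028 kept direction and side of the threshold, 27 lost the call, 9 gained it and 22 changed sign. Sign changes touched only KLF4 and KLF13. For KLF4 they were C1 against NC1 on scan day 1 (0.068), C2 against C1 on day 1 (-1.29), with C2 pairs averaged (-0.16) and with arrays left out (-0.24 to 0.90), and C2 against NC1 with normexp (0.16), the replicate block (0.014), day 2 alone (1.65) and arrays left out (-0.60 to 0.54). For KLF13 A_73_106439 they were C2 against C1 with array weights (0.042) and on day 1 (0.18), and C2 against NC1 on day 2 (-0.29). For A_73_115556 they were C1 against NC1 with 75th percentile scaling (-0.000314), quantile normalization (-0.0184), day 1 (-0.037) and arrays left out (-0.040 to 0.11). Scaling by the 75th percentile moved the median of all probes by -0.13 for C2 against C1 and -0.15 for C2 against NC1, quantile normalization by -0.11 for C2 against NC1, and normexp by 0.14 for C1 against NC1. Over all probes, 9 were called between C1 and NC1, against 243 with array weights, 21 without the filter on dim probes, 22 on scan day 2 alone, 2 with slide as a fixed block or without moderation, and 0 with the replicate block (1172 at an unadjusted p under 0.05) or on scan day 1 alone (555). With 1 array left out this count was 1 to 19, with 1 without NC1 replicate 1, 2, 5 or 6 or C1 replicate 6, 2 without C1 replicate 1, 3 or 4, 4 without C1 replicate 5, and 19 without C2 replicate 2. On scan day 1 alone 1359 probes were called at C2 over C1, 1399 at C2 over NC1 and 1300 among the 3 stages, in place of 3895, 3901 and 3981, and on day 2 alone 4049, 3462 and 3721. The causes were not tested. Dim signal limits KLF5 at C1.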
